A study of Mus musculus with 2 samples.

Results

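The transcripts of 39 genes of glutathione, thioredoxin and antioxidant metabolism were followed in single-cell RNA sequencing of the newborn mouse lens epithelium. The members were all rows of the count matrices whose symbol was on a list of 39 names, and each name matched a row among the 32285 genes measured. Both libraries came from wild-type C57BL/6N pups at postnatal day 2, with no treatment and no mutant arm. Each of the 2 libraries was an independent pool of 4 to 8 pups, whose lenses were cleaned of vessels and ciliary body before the capsule with its attached epithelium was dissociated. Pools, not cells, were the replicates, so n = 2 for each value, and pairs of values below are pool 1 followed by pool 2.

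Glutathione is a tripeptide that reduces peroxides and keeps protein thiols reduced. It is made in 2 steps from cysteine, glutamate and glycine, and the lens is known for holding it at high concentration and for clouding when it is lost. Cystine enters cells through the exchanger xCT, peroxidases and transferases spend glutathione, and glutathione reductase regenerates it with NADPH. The thioredoxin system runs beside it on the same NADPH, and the NRF2 factor, held in check by KEAP1, controls many genes of both systems.

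The libraries held 12314 and 9425 barcodes with median depths of 6307 and 8050 UMIs (unique molecular identifiers, each counting 1 captured transcript), and 27 barcode sequences occurred in both. After filters on genes, UMIs and mitochondrial share and removal of the 8% of barcodes most like doublets, 10658 and 7836 remained. Cells were sorted into groups by marker genes that exclude the members. There were 9220 and 6525 lens cells, 334 and 214 endothelial-like cells, 118 and 138 mural-like cells (the contractile cells of vessel walls) and 23 and 26 macrophage-like cells, the remnant of the vessels around the lens. The vascular gates asked for UMIs of at least 4 listed genes of the type. Lens cells were cut further by shares of their UMIs: a late differentiating group with the 12% highest beta and gamma crystallin share, then G2M and S groups by cell cycle genes, an early differentiating group by genes such as Cdkn1c and Ccdc80, and the resting cells that were left, split at the median share of Igfbp5, Folr1, Cntf and Sostdc1 into an Igfbp5-rich and an Igfbp5-poor group. These are ranges of a score and not cell types: 292 of 15745 lens cells lay within 10% of the late cut and 657 of 8808 resting cells within 10% of the Igfbp5 cut. All 7 lens epithelial genes checked (among them Pax6, Foxe3 and Cdh1) were detected in lens cells of both pools, summing to 2770 and 2654 CPM (counts scaled to a common library total). Lists for corneal epithelium, retina and pigment cells each summed to at most 4.21 CPM there. A further 806 and 726 barcodes met no gate, 156 and 206 lens barcodes had under 1% mitochondrial UMIs, and 1 and 1 were erythroid. None of these were used.

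Levels are CPM of UMIs summed over the cells of a pool and group, scaled by edgeR's trimmed mean of M values (TMM). UMIs were counted at transcript ends and were not divided by gene length, so levels are compared within a gene and not between genes. "Rose", "fell", "higher" and "lower" are used of tests that passed a Benjamini-Hochberg adjusted p of 0.05 in edgeR's quasi-likelihood test, with the pool as a block and adjustment over all genes of the fit. Log2 fold changes carry their standard errors. Comparisons against resting cells use the mean of both resting groups on the log scale.

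In lens cells Slc7a11, which encodes the xCT subunit of the cystine exchanger, was high in resting and cycling cells and fell to 5.97 and 3.97 CPM in late differentiating cells, while Gclc, Gclm and Gss, which make glutathione, rose. Of 38 members tested, 15 rose and 16 fell in the late group, 81.6% against 67.1% of all genes (32.8% of all genes rose and 34.3% fell). In the early group 13 rose and 15 fell, 73.7% against 43.7% of all genes (21.6% rose and 22.1% fell). S cells had 10 members that rose and 13 that fell, 60.5% against 46.8% of all genes (25.2% and 21.6%). G2M cells had 11 that rose and 17 that fell, 73.7% against 50.5% of all genes (25.3% and 25.2%). Between the resting groups 9 members were higher and 11 lower in the Igfbp5-rich cells, 52.6% against 25.5% of all genes (13.1% and 12.4%). The 9 include Slc7a11, which the study named beside gate genes of that split. From early to late 10 rose and 11 fell, 55.3% against 40.2% of all genes (21.7% and 18.6%). Many genes pass with these deep sums, so sizes are given beside calls. Of the 38, 18 members differed over 2-fold between late and resting cells, 6 between early and resting, 1 in S, 1 in G2M and 2 between the resting groups, where 24.4%, 13.2%, 9.51%, 11.0% and 4.14% of all genes did. Sod3 had 2 UMIs in all lens cells and was not tested. Glrx, Gpx3 and Nqo1 passed the filter on low counts through other lens groups and not through late cells. Glrx did not pass through early cells either, nor Hmox1 through G2M cells. The filter thus favored low values there, and those genes, which the counts above include, are no support in those groups.

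**Figure D1:**
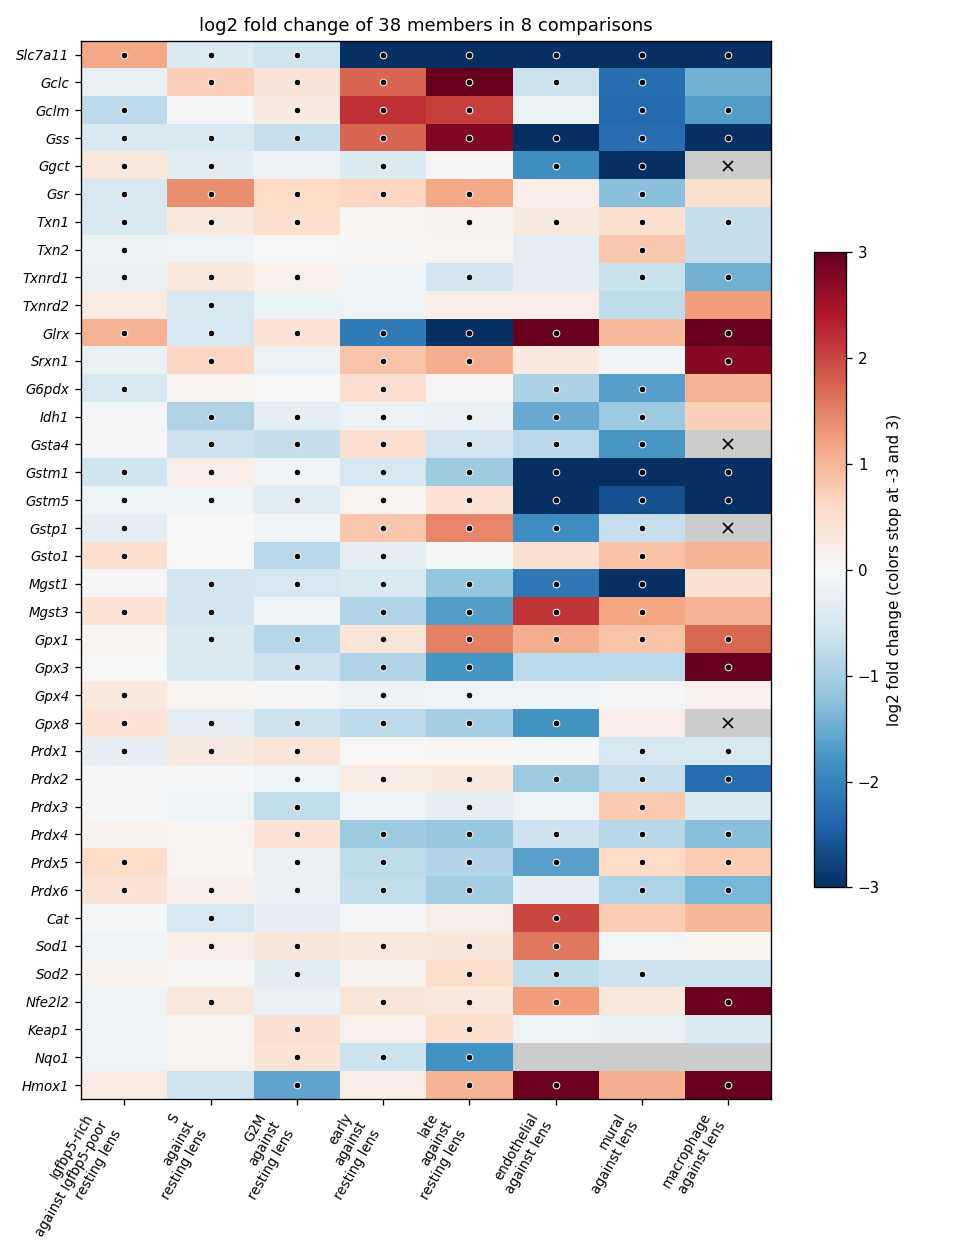
log2 fold change of 38 members (rows, ordered by role) in 8 comparisons (columns), from dark blue (lower) to dark red (higher), with colors ending at -3 and 3. Black dots mark an adjusted p under 0.05, plain grey cells were not tested, and crosses on grey mark genes with 0 UMIs in that vascular group, where no fold is given. Slc7a11, Gss, Ggct, Gsta4, Srxn1 and Gpx3 passed the filter of the vascular columns through 1 group, so their dots there are no support. Nor are those of Cat, Glrx, Hmox1, Mgst3 and Txnrd2, which passed through vascular groups and not through lens cells. The Slc7a11 dot between the resting groups is no support either, since the gate favored it. Dots for a fall in a group through which the gene did not pass the filter are also no support. These include Glrx in early and late, Gpx3 and Nqo1 in late, Hmox1 in G2M and Gclc in mural cells. The Slc7a11 row is blue in the early, late and vascular columns, where Gclc, Gclm and Gss are red for early and late.

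The import gene had the largest late against resting change of the 38 members. Slc7a11 (ENSMUSG00000027737, chr3:49892526-50443614, minus strand, mm10 with GENCODE vM21) stood at 367 and 357 CPM in the Igfbp5-rich group, 156 and 172 in the Igfbp5-poor group, 174 and 194 in S and 154 and 167 in G2M cells, then 14.3 and 15.1 in the early and 5.97 and 3.97 in the late group. Every early and late value lay below every resting and cycling value, and the Igfbp5-poor and G2M ranges overlapped. Slc7a11 fell from resting to early (log2 fold change -4.05 ± 0.08, adjusted p = 2.38e-24) and to late (log2 fold change -5.58 ± 0.09, adjusted p = 8.49e-27). Between the Igfbp5-rich and Igfbp5-poor groups its log2 difference was 1.15 ± 0.05. The study named Slc7a11 beside the gate genes Igfbp5, Folr1 and Cntf for a cluster of these same cells. The gate thus favored that difference, which is given as a value with no test. Slc3a2, the partner chain that carries xCT and several amino acid transporters to the membrane, ran otherwise, with 674 and 622 CPM in the Igfbp5-rich and 679.6 and 597 CPM in the late group.

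The share of cells with a Slc7a11 UMI pointed the same way once each cell was thinned to 2000 UMIs. It was 49.8% and 47.1% in the Igfbp5-rich group (77.4% and 79.8% before thinning), 26.7% and 25.9% in the Igfbp5-poor group, and 3.08% and 3.12% in the early group. In the late group it was 0.905% and 0.514% (4.79% and 3.57% before thinning), no more than the larger of the endothelial shares of 0.806% and 1.11%, so it was not told apart from background there. The late folds are of summed UMIs, include any such background and are no bound. At most 23 cells of a lens group and pool, and 86 and 34 endothelial cells, were too shallow to thin. Median depths before thinning ran from 5378 and 6668 UMIs in the Igfbp5-rich to 12227 and 13765 in the late group, and were 3029 and 3203 in the endothelial group.

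The enzymes of synthesis went the other way. Gclc, the catalytic subunit of the rate-limiting glutamate-cysteine ligase (ENSMUSG00000032350, chr9:77754535-77794485, plus strand), measured 15.4 and 15.6 CPM in the Igfbp5-rich and 17.7 and 18.3 in the Igfbp5-poor group, 58.8 and 53.5 in the early and 167 and 169 in the late group. The steps from resting to early and from early to late were far wider than the gaps between pools. The rise from resting to late (log2 fold change 3.33 ± 0.07, adjusted p = 2.51e-25) came at both steps (early against resting 1.75, late against early 1.58). The share of cells with a Gclc UMI at 2000 UMIs went from 3.88% and 3.22% in the Igfbp5-rich to 20.4% and 20.7% in the late group (9.02% and 10.2%, and 66.9% and 72.4%, before thinning).

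Gclm, the modifier subunit of the same ligase (ENSMUSG00000028124, chr3:122245557-122270732, plus strand), rose by the early group. It measured 38.9 and 34.9 CPM in the Igfbp5-rich, 63.2 and 65.2 in the Igfbp5-poor, 203 and 246 in the early and 202 and 209 in the late group. The rise to the early group (log2 fold change 2.20 ± 0.06, adjusted p = 3.04e-21) was followed by a late against early difference that missed the threshold (log2 fold change -0.12 ± 0.07, adjusted p = 0.134), with early and late ranges that overlapped. That difference was -0.28 and passed with library sizes counted without crystallins and no TMM factors. Gclm was also lower in Igfbp5-rich than in Igfbp5-poor cells, by 0.79 on the log2 scale.

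Gss, glutathione synthetase (ENSMUSG00000027610, chr2:155563181-155592810, minus strand), stood at 40.0 and 37.9 CPM in the Igfbp5-rich, 56.0 and 50.1 in the Igfbp5-poor, 151 and 152 in the early and 322 and 299.9 in the late group. It rose at both steps (early against resting 1.74, late against early 1.04), with log2 fold change 2.77 ± 0.05, adjusted p = 5.33e-27 for late against resting. Cycling cells held less Gss, at 33.3 and 32.7 CPM in S and 31.1 and 25.4 in G2M (log2 fold changes -0.46 and -0.68). Ggct, which breaks down gamma-glutamyl amino acids, stayed between 11.5 and 20.3 CPM in all 6 groups, with a late against resting log2 difference of 0.03 ± 0.11. It fell in early cells (log2 fold change -0.41 ± 0.13, adjusted p = 0.0115), with -0.27 in pool 1 alone and -0.56 in pool 2 alone.

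**Figure D2:**
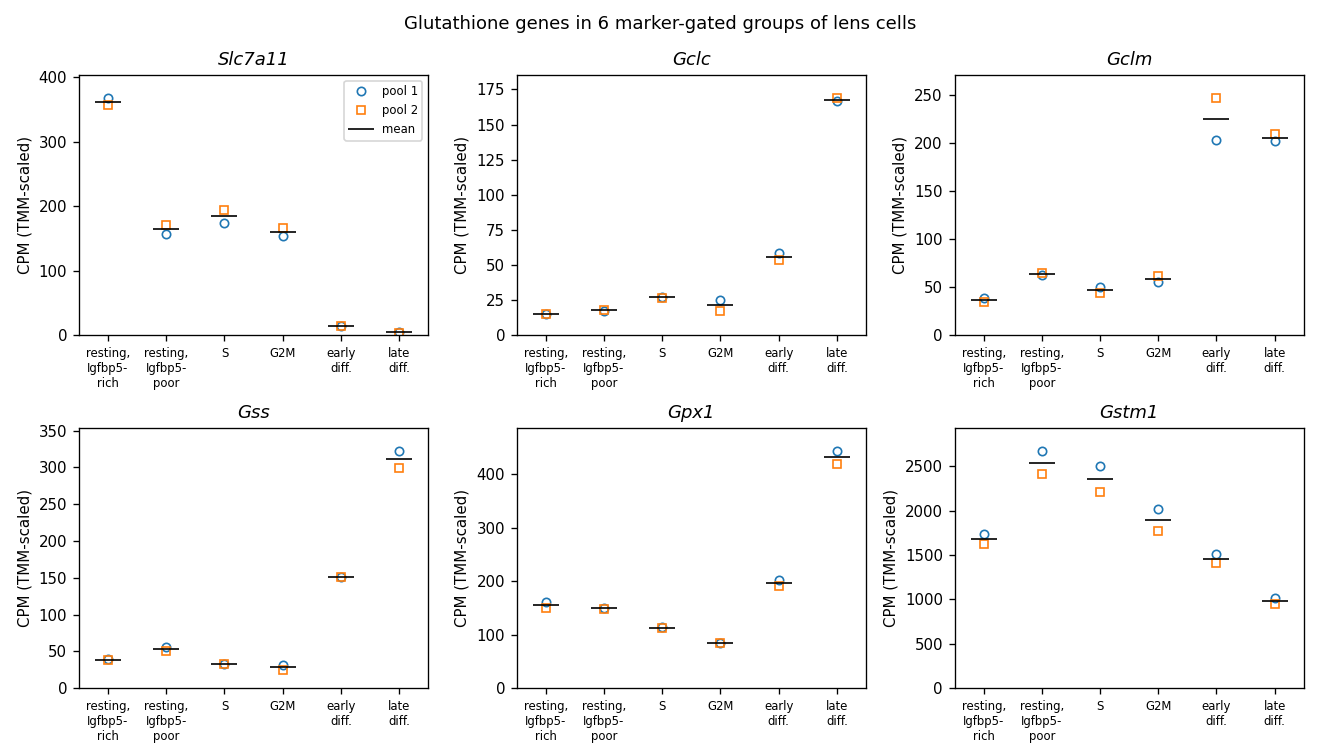
TMM-scaled CPM (y axes, from 0) of 6 members in 6 groups of lens cells (x axes); circles are pool 1, squares pool 2 and black lines their mean. Slc7a11 is highest in the Igfbp5-rich group and lowest in the late group, where Gclc, Gss and Gpx1 have their highest values; Gstm1 is highest in the Igfbp5-poor group.

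Because the late gate is a cut on a continuous share, the lens cells of each pool were also divided into 10 equal bins by beta and gamma crystallin share, and members were expressed as CPM of the UMIs of genes other than crystallins. Slc7a11 went from 338 and 315 in the lowest bin to 208 and 194 in bin 8, then to 72.6 and 44.2 in bin 9 and 5.81 and 3.58 in bin 10. Gclc was level from 24.0 and 25.3 in bin 1 to 26.7 and 27.9 in bin 8 and then reached 91.0 and 87.2, and 176 and 176. The steep part of the Slc7a11 fall and the climb of Gclc thus lay in the same bins, while Slc7a11 had already gone down by bin 8. Gss climbed along the bins, from 37.96 and 31.4 in bin 1 to 85.0 and 86.2 in bin 8 and 349 and 317 in bin 10. Gclm peaked in bin 9, at 213 and 252, with 198 and 203 in bin 10. Crystallins took most UMIs in the same bins, 14.9% and 14.6% and then 31.8% and 28.9% of all, against 9.69% and 9.57% in bin 8. The median beta and gamma crystallin share was 4.47% and 4.50% in bin 9 and 13.8% and 11.99% in bin 10.

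**Figure D3:**
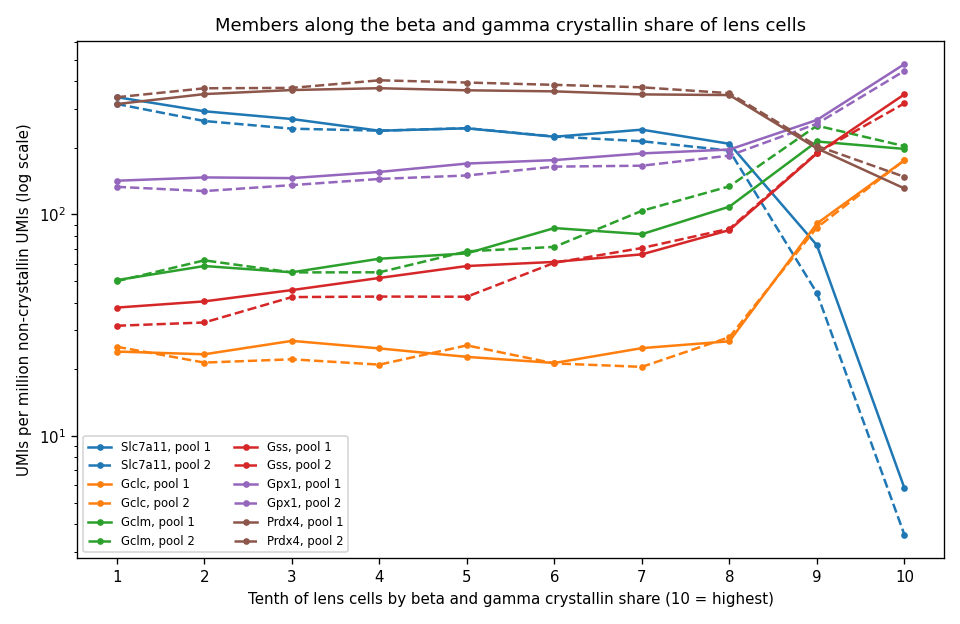
CPM of non-crystallin UMIs (y axis, log scale) of 6 members in 10 equal bins of lens cells ordered by beta and gamma crystallin share (x axis); solid lines are pool 1 and dashed lines pool 2. Slc7a11 and Prdx4 drop and Gclc, Gss and Gpx1 climb in bins 9 and 10, in both pools.

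Promoters of members that moved apart were searched for 2 core forms of the antioxidant response element, the site that NRF2 with a small MAF protein is known to bind. The motifs TGACNNNGC and TGAGNNNGC differ in 1 base, so a site matches only one of them on a given strand; both strands were read from 250 bases before to 50 after each RefSeq start. Of the 39 members, 33 had a promoter in the RefSeq table, 42 promoters in all. TGACNNNGC was in 23.8% of member promoters and 12.4% of all 32851 promoters, TGAGNNNGC in 16.7% and 17.6%, and either one in 33.3% and 27.8%. A match was present in 14 of the 33 genes, with no share per gene over all genes to set it against. The sites shown are those of Slc7a11 and Txnrd1, which fell in late cells, of Gclm, Srxn1 and Gstp1, which rose, and of Prdx1, whose late against resting difference missed the threshold. They are 29 bases each, read 5′ to 3′ on the strand of the gene from RefSeq on build GRCm38.p6, with the match in capitals.
Slc7a11, chr3:50443692-50443720, minus strand, 97 bases before the start: taatgttggcGCTTTCTCAagctggagtt
Txnrd1, chr10:82859104-82859132, plus strand, 92 bases before the start: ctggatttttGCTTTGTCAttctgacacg
Gclm, chr3:122245413-122245441, plus strand, 134 bases before the start: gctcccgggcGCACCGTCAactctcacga
Srxn1, chr2:152105469-152105497, plus strand, 45 bases before the start: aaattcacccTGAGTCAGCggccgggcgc
Gstp1, chr19:4037968-4037996, minus strand, 74 bases before the start: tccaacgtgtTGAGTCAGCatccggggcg
Prdx1, chr4:116685456-116685484, plus strand, 133 bases before the start: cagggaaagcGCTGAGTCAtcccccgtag
Of these sites, those of Slc7a11, Srxn1 and Gstp1 match TGAGNNNGC, and those of Txnrd1, Gclm and Prdx1 match TGACNNNGC. Only 1 site per gene is shown, while Srxn1 had 3 matches and Gstp1 and Prdx1 had 2 each. The sites not shown include a TGACNNNGC match of Srxn1 and a TGAGNNNGC match of Prdx1, so the genes are not sorted by motif. A match to 1 of the 2 motifs was thus present before genes that rose and before genes that fell. Txnrd1 has 3 promoters with 1 match in all, and Gclc had no RefSeq promoter to search. Nothing on why genes rose or fell is read from these sites. Gss, Gpx1 and Keap1 had no match in this window, and Nfe2l2 had 1, 240 bases before its start. A match is a run of letters and not a bound site.

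Among the genes that recycle glutathione and thioredoxin, Gsr was highest in S cells. Gsr encodes glutathione reductase and measured 13.7 and 16.7 CPM in the Igfbp5-rich, 20.6 and 21.2 in the Igfbp5-poor, 47.0 and 46.2 in S, 26.3 and 26.8 in G2M, 30.5 and 24.3 in early and 41.2 and 36.4 in late cells. S cells had the highest values of all groups in both pools (log2 fold change 1.40 ± 0.09, adjusted p = 1.10e-13 against resting), followed by late cells (log2 fold change 1.14 ± 0.09, adjusted p = 5.29e-12). G6pdx, the enzyme of the pentose phosphate path that makes NADPH, rose in early cells to 23.0 and 20.2 CPM from 13.5 and 12.4 in Igfbp5-rich and 17.9 and 18.3 in Igfbp5-poor cells (log2 fold change 0.50), and its late against resting difference was 0.05 ± 0.10. Idh1, the cytosolic isocitrate dehydrogenase that also yields NADPH, had its lowest values in S cells, 40.3 and 36.6 CPM against 71.8 and 70.1 in Igfbp5-rich cells, a fall with log2 fold change -0.91 ± 0.06, adjusted p = 1.70e-12.

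Thioredoxin and its reductase changed less. Txn1, cytosolic thioredoxin, measured 302 and 346 CPM in the Igfbp5-rich and 421 and 464 in the Igfbp5-poor group, and it was highest in G2M cells at 497 and 567 CPM (log2 fold change 0.49 ± 0.03, adjusted p = 6.63e-13). Its late against resting value of 0.11 passed, but with the library size counted without crystallins and no TMM factors the sign turned, to -0.10. Txnrd1, cytosolic thioredoxin reductase, fell from 82.0 and 85.5 CPM in Igfbp5-rich to 58.3 and 64.4 in late cells (log2 fold change -0.56 ± 0.05, adjusted p = 4.60e-10). Its gene overlaps the coding gene Eid3 on the same strand, so its count is uncertain. The mitochondrial pair stayed within a narrow band: Txn2 between 80.7 and 99.7 CPM and Txnrd2 between 8.14 and 14.9 CPM over all lens groups, and neither passed between late and resting cells.

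Both thiol repair genes moved by more, from low levels. Glrx, glutaredoxin, which removes glutathione from proteins, had 6.95 and 7.87 CPM in Igfbp5-rich, 3.15 and 4.09 in Igfbp5-poor and 1.03 and 1.31 in early cells, and 2 and 3 UMIs in late cells. The late against resting difference was -4.11 ± 0.36 on the log2 scale, with -3.34 from pool 2 alone and -3.61 from pool 1 alone. It is a value with no test, since Glrx did not pass the filter on low counts through late cells. Igfbp5-rich cells held more Glrx than Igfbp5-poor cells (log2 fold change 1.04 ± 0.17, adjusted p = 3.17e-05). Srxn1, sulfiredoxin, which repairs overoxidized peroxiredoxins, went from 3.01 and 3.34 CPM in Igfbp5-rich to 7.82 and 6.41 CPM in late cells (log2 fold change 1.09 ± 0.17, adjusted p = 3.02e-06).

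The transferases that conjugate glutathione to foreign or oxidized molecules had 2 members that rose and 4 that fell in late cells, of 7 tested. Gstm1 had 1740.0 and 1618 CPM in Igfbp5-rich, 2667 and 2410.2 in Igfbp5-poor, 2499 and 2208 in S, 1514 and 1407 in early and 1013 and 953 in late cells. Late cells were lowest in both pools and Igfbp5-poor cells highest, with log2 fold change -1.07 ± 0.03, adjusted p = 9.31e-22 for late against resting and log2 fold change -0.60 ± 0.03, adjusted p = 6.84e-14 for Igfbp5-rich against poor. Along the crystallin bins Gstm1 climbed from 1506 and 1452 CPM of non-crystallin UMIs to 3054 and 2659.6 in bin 7 before it dropped to 955 and 907 in bin 10, so the order was not monotonic.

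Gstp1, the pi class enzyme, rose from 30.1 and 31.9 CPM in Igfbp5-rich to 62.1 and 57.0 in early and 101 and 85.1 in late cells (log2 fold change 1.47 ± 0.07, adjusted p = 4.72e-17), and Gstm5 from 331 and 348 to 464 and 489 CPM (log2 fold change 0.42). The microsomal transferases fell: Mgst3 had 17.6 and 23.2 CPM in Igfbp5-rich and 4.53 and 6.41 in late cells (-1.69), and Mgst1 30.5 and 36.3 and then 15.3 and 14.5 CPM (-1.17). Gsta4, which handles lipid aldehydes, peaked in early cells at 35.7 and 40.5 CPM and was 17.7 and 19.0 in late cells, so it rose against resting first (0.49) and then fell (-0.57). Gsto1, of the omega class, was lowest in G2M at 11.9 and 10.9 CPM (-0.82), and its late against resting difference was -0.04 ± 0.09. Gstm and Gstp genes have close copies in the genome, so their counts carry the way reads were split among copies.

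Only 1 of the 4 glutathione peroxidases rose in late cells. Gpx1, the cytosolic selenoenzyme, measured 161 and 150.0 CPM in Igfbp5-rich, 83.6 and 84.7 in G2M, 202 and 191 in early and 442 and 419 in late cells. G2M values were the lowest and late values the highest in both pools (log2 fold change -0.85 ± 0.05, adjusted p = 7.58e-15 and log2 fold change 1.502 ± 0.04, adjusted p = 3.69e-23 against resting). Gpx8, of the endoplasmic reticulum, ran downward from 232 and 201 CPM in Igfbp5-rich to 98.5 and 87.4 in late cells (log2 fold change -1.01 ± 0.05, adjusted p = 2.05e-15). Gpx4, which repairs lipid peroxides in membranes, varied between 458 and 591 CPM across all 6 groups, with a late against resting log2 fold change of -0.11 that was -0.04 in pool 1 alone and -0.18 in pool 2 alone. The secreted Gpx3 had at most 5.53 CPM in any lens group.

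The peroxiredoxins, which reduce peroxides with thioredoxin, had 1 member that rose in late cells, 4 that fell and 1 that missed the threshold. Prdx4 measured 301 and 322 CPM in Igfbp5-rich, 365 and 435 in G2M, 138 and 147 in early and 128 and 145 in late cells, where the early and late values lay under all others and overlapped each other. Prdx4 fell in early (log2 fold change -1.08 ± 0.04, adjusted p = 2.00e-17) and late cells (log2 fold change -1.15 ± 0.04, adjusted p = 7.76e-19). Prdx5 went from 650.0 and 687 CPM in Igfbp5-rich, through 443 and 475 in Igfbp5-poor cells, to 307 and 292 in late cells (log2 fold change -0.88 ± 0.04, adjusted p = 3.46e-17). Prdx6, which uses glutathione, went from 208 and 211 to 85.6 and 92.4 CPM between the same groups (log2 fold change -1.03 ± 0.05, adjusted p = 9.66e-17).

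Prdx1, Prdx2 and Prdx3 differed by under 2-fold between late and resting cells. Prdx2 rose from 854 and 902 CPM in Igfbp5-rich to 1101 and 1064 in late cells (log2 fold change 0.29). Prdx1 was 534 and 580.2 CPM in Igfbp5-rich and highest in G2M at 765 and 785 CPM (0.36). Its late against resting value was 0.07 ± 0.03, with -0.14 when library sizes left out crystallins and no TMM factors were used. The mitochondrial Prdx3 was lowest in G2M at 37.9 and 35.9 CPM against 63.2 and 57.9 in Igfbp5-rich cells (log2 fold change -0.73 ± 0.06, adjusted p = 1.30e-10). It also fell in late cells, to 50.5 and 51.2 CPM (log2 fold change -0.27 ± 0.06, adjusted p = 0.000182). Cat, catalase of the peroxisome, stayed between 10.51 and 18.1 CPM, with its lowest values in S cells (log2 fold change -0.50 ± 0.11, adjusted p = 0.000693).

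**Figure D4:**
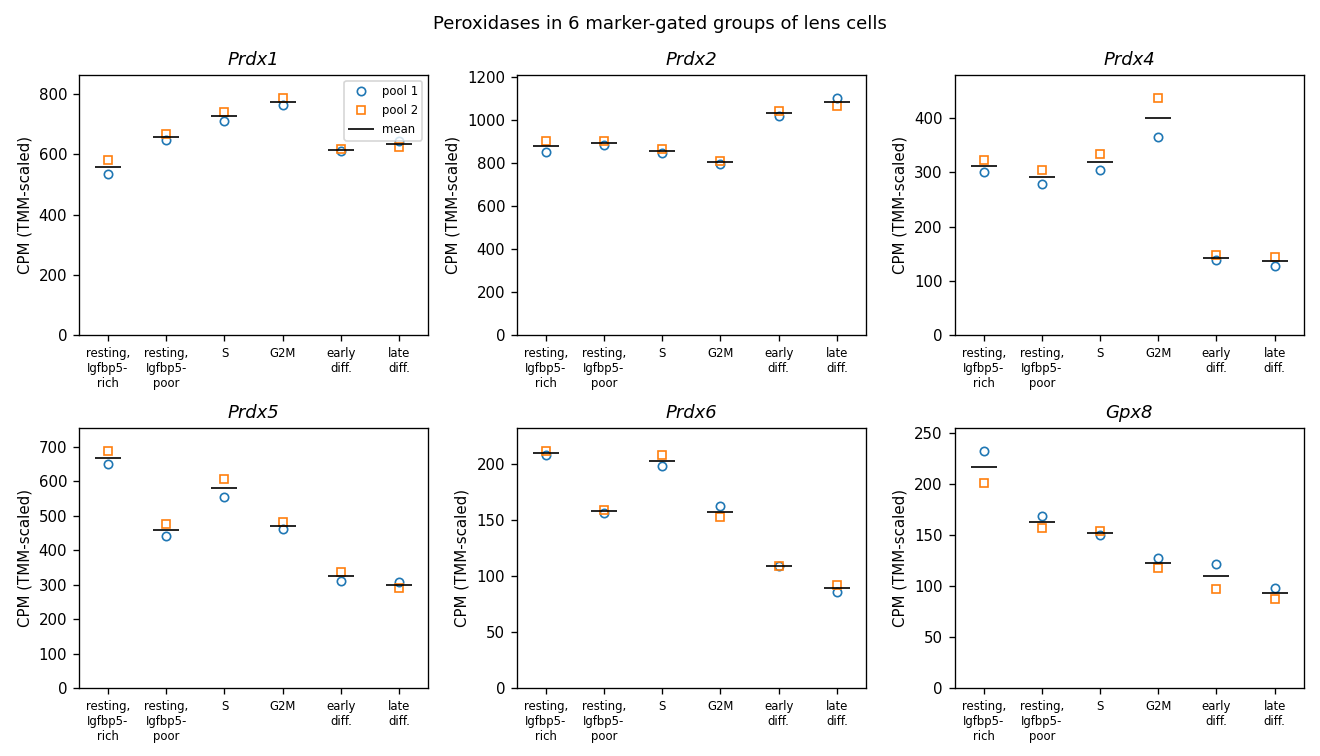
TMM-scaled CPM (y axes, from 0) of 5 peroxiredoxins and Gpx8 in 6 groups of lens cells (x axes); circles are pool 1, squares pool 2 and black lines their mean. Prdx4, Prdx5, Prdx6 and Gpx8 are lowest in the early and late groups, and Prdx1 is highest in G2M.

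Superoxide dismutases and control genes moved by less than 2-fold between resting and differentiating lens cells, apart from Nqo1 and Hmox1. Sod1, the cytosolic enzyme, had 65.1 and 78.4 CPM in Igfbp5-rich and 85.9 and 104 in late cells, and pool 2 was the higher in every group (log2 fold change 0.34 ± 0.06, adjusted p = 4.58e-06). Sod2, the mitochondrial enzyme, had 125 and 146 and 183 and 191 CPM (log2 fold change 0.53 ± 0.05, adjusted p = 8.02e-11). Nfe2l2, which encodes NRF2, had 21.6 and 16.3 CPM in Igfbp5-rich and 29.2 and 20.6 in late cells (0.33 on the log2 scale), and Keap1 had 38.01 and 27.3 and 51.1 and 44.7 CPM (0.48). The classic NRF2 target Nqo1, a quinone reductase, went from 4.01 and 4.62 to 1.34 and 1.15 CPM (log2 fold change -1.82 ± 0.26). Nqo1 did not pass the filter on low counts through late cells, so its change is given as a value with no test. Hmox1, the heme oxygenase, rose from 4.24 and 3.93 to 6.99 and 8.33 CPM (log2 fold change 1.01 ± 0.19, adjusted p = 2.87e-05), and it was lowest in G2M cells, with 14 and 7 UMIs. The late rise was 0.72 in pool 1 alone and 1.30 in pool 2 alone.

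Late cells hold many crystallin transcripts, which bears on every late value. An alternative counted library sizes without crystallin UMIs and also left out the TMM factors, which were 0.720 and 0.738 for late cells. In it the median of all genes for late against resting moved from -0.03 to -0.24 and the rising share of called genes from 48.9% to 32.4%. For late against early the share moved from 53.9% to 31.3%. The parts of these changes in scaling were not separated. Under that scaling Slc7a11, Gclc, Gclm and Gss kept their signs and calls for late against resting, at -5.79, 3.12, 1.86 and 2.56.

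In the vessel remnant, of 37 members tested, 8 were higher and 16 lower in endothelial-like than in lens cells, 64.9% against 62.3% of all genes (30.7% higher and 31.7% lower), a share near the background. Mural-like cells had 7 higher and 19 lower, 70.3% against 48.9% of all genes (25.1% and 23.8%). Macrophage-like cells had 7 higher and 15 lower, 59.5% against 37.7% of all genes (16.9% and 20.8%). The median log2 fold change of macrophage against lens cells was -0.41 over members and -0.43 over all genes. With DESeq2 the higher share of all called genes went from 44.9% to 59.0%, so the split there moved with the method. Mural-like against endothelial-like cells had 7 higher and 11 lower, 48.6% against 32.6% of all genes (16.8% and 15.8%). Slc7a11, Gss, Ggct and Gsta4 passed the filter on low counts only through lens cells, and Srxn1 and Gpx3 only through macrophages, so for those 6 a difference from that group was built into the filter. Among the other 31 tested, 8 were higher and 12 lower in endothelial, 7 higher and 15 lower in mural and 5 higher and 11 lower in macrophage cells, 64.5%, 71.0% and 51.6% of them. These 31 include Cat, Glrx, Hmox1, Mgst3 and Txnrd2, which passed through vascular groups and not through lens cells. The filter thus favored a value above lens in those groups, and their tests against lens are no support. Likewise it favored a lower value where a gene passed through lens cells and not through the vascular group compared, as for Gclc in mural cells. Nqo1 and Sod3 were not tested.

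Free RNA from broken cells can reach every droplet, and the alpha crystallins Cryaa and Cryab, abundant in lens cells, were used to gauge its level. Whether vascular cells make some of either was not tested. They stood at 1.91% to 2.34% of their lens level in endothelial, 2.23% to 5.13% in mural and 2.69% to 3.94% in macrophage cells, groups whose gate required these genes under 2% of UMIs. In mural cells Cryaa stood at 2.23% and 2.56% and Cryab at 5.13% and 5.04%. Slc7a11 (3.80% and 4.52%) and Gstm1 (3.28% and 2.14%) lay under the mural Cryab level in both pools. Slc7a11 lay above the Cryaa level in both pools and Gstm1 in pool 1. Their mural levels were thus not told apart from background, nor shown to be background only. Slc7a11 in endothelial cells (4.36% and 2.63% of the lens level), Gstm1 in endothelial (3.03% and 2.54%) and Gstm1 in macrophage cells (5.68% and 4.94%) lay above the crystallin level but within 2 times of it, so their levels include free RNA to an extent that was not measured. Macrophage sums held only 93271 and 110074 UMIs, which limits what a low value there can show. In mural cells a fibroblast list summed to 659 and 632 CPM against 96.04 and 104 in lens cells. It came from Col1a1, Col1a2 and Col3a1, with Dcn, Lum, Pdgfra and Dpt at 0, and its part in the mural values was not tested.

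The levels of Slc7a11 and Gss in the vascular groups are given as values, with no test, since both genes entered through lens cells only. Slc7a11 had 199 and 195 CPM in lens cells and 8.67 and 5.14 in endothelial, 7.56 and 8.82 in mural and 19.5 and 0 in macrophage cells, the last from 2 and 0 UMIs. Gss had 108 and 101 CPM in lens and 10.53 and 2.05 in endothelial cells, the latter from 17 and 2 UMIs. Gclc had 51.4 and 50.2 CPM in lens, 24.2 and 45.2 in endothelial and 15.1 and 6.62 in mural cells, the last from 6 and 3 UMIs. The mural against lens log2 difference of Gclc was -2.26 ± 0.45, given with no test, since Gclc did not pass the filter through mural cells. The endothelial value was -0.64, from -1.09 in pool 1 alone and -0.15 in pool 2 alone, and it missed the threshold in DESeq2. Gclm differed between the vascular types: endothelial cells held 102 and 86.3 CPM beside 101 and 111 in lens cells, a difference that missed the threshold (log2 fold change -0.16 ± 0.18, adjusted p = 0.478), while mural cells held 22.7 and 19.9 CPM (log2 fold change -2.16 ± 0.35, adjusted p = 8.48e-06 against endothelial). The exchanger's partner Slc3a2 was at 1427 and 1245 CPM in endothelial against 715 and 638 in lens cells.

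Of the 7 transferases, 5 were lower and 1 higher in endothelial, 5 lower and 2 higher in mural, and 4 lower and 0 higher in macrophage cells, where 62.3%, 48.9% and 37.7% of all genes were called. Without Gsta4, which entered through lens cells only, 4, 4 and 3 were lower. Gstm1 had 2230.1 and 2065 CPM in lens, 67.5 and 52.4 in endothelial, 73.1 and 44.1 in mural and 127 and 102 in macrophage cells. Gstm5 had 401 and 424 and 45.8 and 34.9 CPM in lens and endothelial cells (-3.32), and Gstp1 53.5 and 48.9 and 13.6 and 15.4 CPM (-1.86). Mgst3 was the 1 that was higher in endothelial cells, with 63.2 and 77.0 CPM in endothelial and 27.7 and 44.1 in mural against 14.3 and 17.6 CPM in lens cells (log2 fold change 2.14 ± 0.19 for endothelial). Mgst3 did not pass the filter through lens cells, so it is given as a value with no test. Macrophages had 0 UMIs of Gsta4 and Gstp1 in both pools, at least 1.95-fold and 3.59-fold lower than lens when set at 3 counts over both pools.

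Sod1 and Gpx1 were higher in endothelial-like than in lens cells, while Sod2, Prdx2, Prdx4, Prdx5 and Gpx8 were lower. Cat and Glrx also had values above lens, given with no test since neither passed the filter through lens cells. Sod1 measured 295 and 268 CPM in endothelial, 85.6 and 106 in lens, 75.6 and 106 in mural and 38.96 and 158 in macrophage cells, and both endothelial values exceeded all others (log2 fold change 1.58 ± 0.13, adjusted p = 5.28e-12). Cat measured 66.3 and 66.8 CPM in endothelial against 16.7 and 16.5 in lens cells (log2 fold change 2.00 ± 0.20). Gpx1 was higher than in lens cells (214 and 202 CPM) in all 3 groups, with 404 and 487 in endothelial, 335 and 421 in mural and 497 and 889.5 in macrophage cells (log2 fold changes 1.09, 0.86 and 1.73). Glrx had 34.7 and 41.1 CPM in endothelial and 4.52 and 4.99 in lens cells (log2 fold change 2.99 ± 0.26). Sod2 was lower in endothelial cells, 83.0 and 102 against 147 and 165 CPM (-0.76). Prdx2 had 545 and 439 CPM in endothelial against 1029 and 1057 in lens cells (-1.08), and Prdx4 had 238 and 171 against 297 and 332 CPM (-0.61, from -0.32 in pool 1 alone and -0.96 in pool 2 alone). Prdx5 and Gpx8 differed by -1.62 and -1.80. Of the 7 peroxiredoxins and catalase 1 was higher and 3 lower in endothelial cells, 57.1% against 62.3% of all genes. The 1 that was higher is Cat, whose call is no support, so no tested rise is read from this list.

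**Figure D5:**
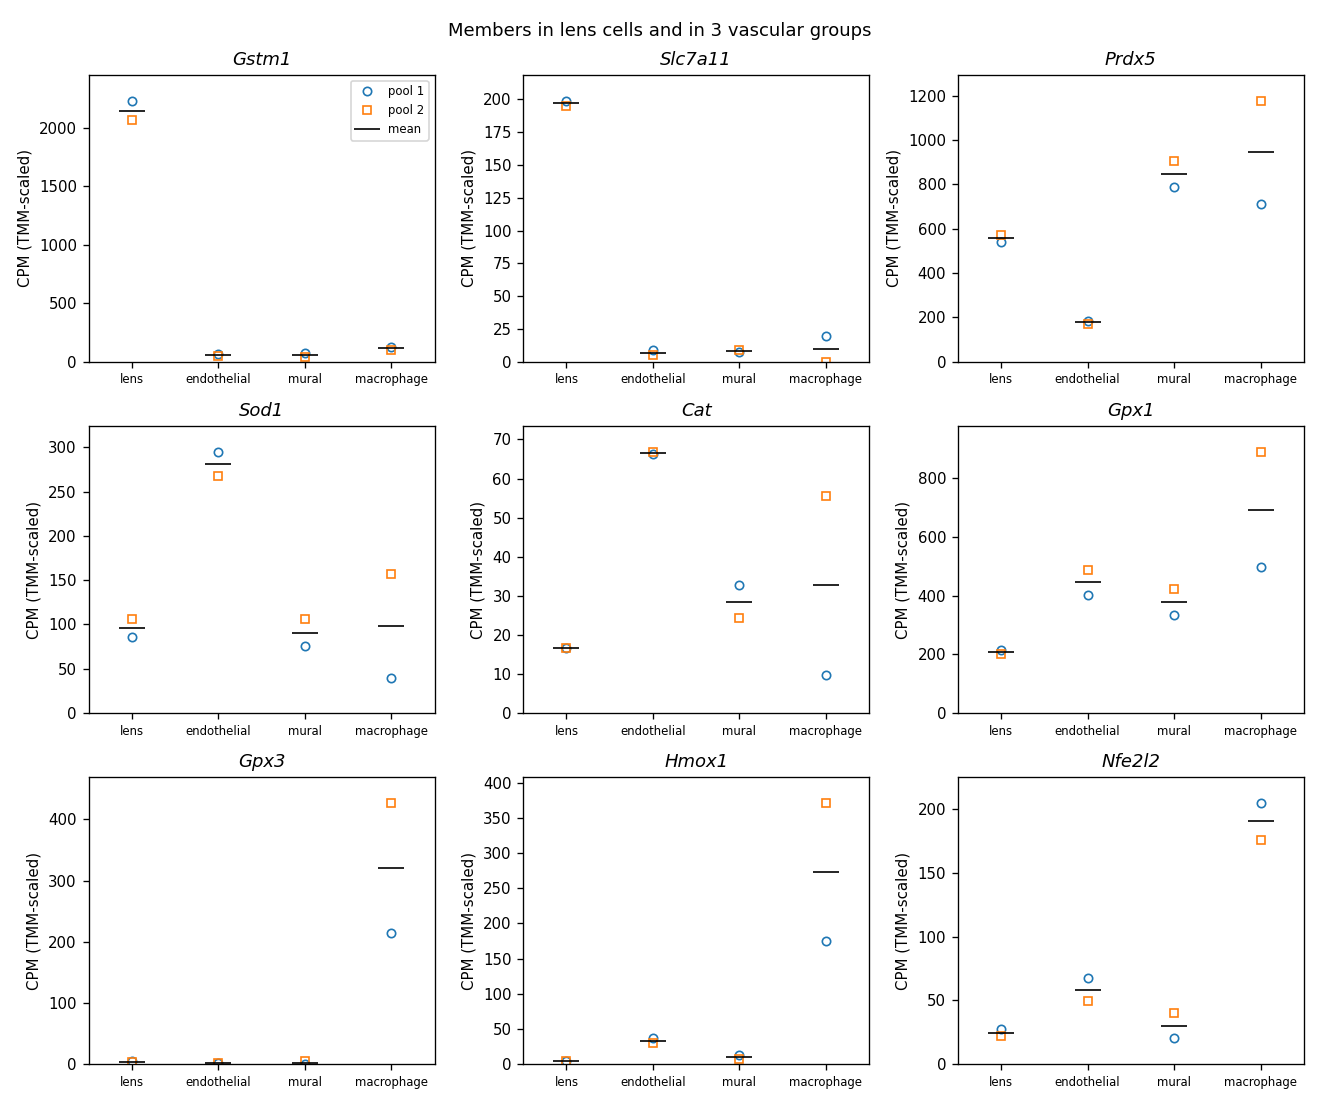
TMM-scaled CPM (y axes, from 0) of 9 members in lens cells and in the endothelial-like, mural-like and macrophage-like groups (x axes); circles are pool 1, squares pool 2 and black lines their mean. Gstm1 and Slc7a11 are high in lens cells, Sod1 and Cat in endothelial, and Gpx3, Hmox1 and Nfe2l2 in macrophage cells.

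Prdx5 and Gpx8 set the mural apart from the endothelial cells. Prdx5 had 789 and 907 CPM in mural, 185 and 172 in endothelial and 542 and 571 in lens cells, and was higher in mural than in endothelial (log2 fold change 2.23 ± 0.14, adjusted p = 2.90e-14) and in lens cells (0.61). Gpx8 had 204 and 194 CPM in mural and 47.7 and 54.4 in endothelial cells (log2 fold change 1.99 ± 0.19, adjusted p = 1.49e-09). Macrophages had no Gpx8 UMI in either pool, at least 12.2-fold under lens cells. Mitochondrial Txn2 and Prdx3 were also above lens cells in the mural group (0.81 and 0.79), at 219 and 141 and at 129 and 90.4 CPM. Txn2 gave 1.09 in pool 1 alone and 0.50 in pool 2 alone. Sod3, the secreted dismutase, had 5 and 2 UMIs in mural cells, 0 in endothelial and macrophage cells and 1 and 1 in lens cells. Prdx2 was lower than in lens cells in all 3 vascular groups, most so in macrophages (166 and 259 against 1029 and 1057 CPM, log2 fold change -2.29 ± 0.20, adjusted p = 7.70e-11).

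Nfe2l2 was higher in the macrophage-like cells, 49 in all, than in lens cells, and Hmox1 had values above those of lens cells. Hmox1 measured 175 and 371 CPM against 4.56 and 4.24 in lens cells (log2 fold change 5.96 ± 0.37), with 36.5 and 29.8 in endothelial cells (2.94). Those are values with no test, since Hmox1 did not pass the filter through lens cells. Gpx3 measured 214 and 426 CPM from 22 and 46 UMIs, and 4.59 and 3.58 CPM in lens cells, with no test since it entered through macrophages only. Nfe2l2 measured 205 and 176 CPM, 67.5 and 49.3 in endothelial and 27.3 and 22.0 in lens cells (log2 fold change 2.95 ± 0.34, adjusted p = 2.08e-08). Keap1 did not pass in any vascular group, with log2 differences of -0.14 ± 0.18, -0.22 ± 0.27 and -0.40 ± 0.54 in endothelial, mural and macrophage cells. Nfe2l2 had both macrophage values above every lens and endothelial value. The same order in Hmox1 and Gpx3 is no support, since the filter favored high macrophage values of both.

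A further 6 lists held 114 genes around these pathways, against a background of 67.1% of all genes called in late cells (32.8% rose and 34.3% fell). Among 15 tested genes of precursor supply and the glutathione cycle, 4 rose and 6 fell in late cells, 66.7%, a share near that background. Of 14 other transferases and peroxidases 1 rose and 7 fell, 57.1%, with Gstm2 going from 199 and 185 CPM in Igfbp5-poor to 42.6 and 38.1 in late cells (log2 fold change -1.95 ± 0.06, adjusted p = 7.41e-21). Of 20 genes around NRF2, 12 rose and 6 fell, 90.0%, led by Bach2, a repressor that shares NRF2's partners, from 10.7 and 9.49 CPM in Igfbp5-rich to 130.2 and 129.7 in late cells (log2 fold change 3.38 ± 0.07, adjusted p = 1.69e-24). Of 15 NADPH genes 5 rose and 7 fell (80.0%), of 21 thioredoxin-fold and methionine sulfoxide genes 9 rose and 7 fell (76.2%), and of 13 selenoprotein and metallothionein genes 7 rose and 4 fell (84.6%). Selenom, of the endoplasmic reticulum, fell most among the last (log2 fold change -2.68 ± 0.08, adjusted p = 6.97e-21), from 85.0 and 92.7 to 11.8 and 16.8 CPM.

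Other genes of these lists moved in cycling cells. Mthfd2, a mitochondrial enzyme of 1-carbon metabolism listed with the NADPH genes, was at 59.0 and 52.3 CPM in S against 10.6 and 6.67 in Igfbp5-rich cells (log2 fold change 2.49 ± 0.09, adjusted p = 2.49e-19). Of the 15 NADPH genes 6 rose and 1 fell in S, 46.7% against 46.8% of all genes. Selenoh, a nuclear selenoprotein, was at 439 and 483 CPM in G2M against 122 and 164 in Igfbp5-rich cells (log2 fold change 1.54 ± 0.05, adjusted p = 6.72e-21), where 2 of 13 genes of its list rose and 7 fell, 69.2% against 50.5% of all genes.

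Genes of these lists also differed in vascular cells. Selenop, the selenium carrier of plasma, had 202 and 185 CPM in endothelial against 2.09 and 1.69 in lens cells (log2 fold change 6.67 ± 0.17). Ggt5, a gamma-glutamyl transferase of the cell surface, had 184 and 181 CPM in mural against 0.274 and 0.302 in lens cells, and the aminopeptidase Anpep had 45.4 and 75.0 against 0.771 and 0.925 CPM. Metallothionein Mt1 had 683 and 677 CPM in mural and 5.30 and 8.54 in lens cells (log2 fold change 6.65 ± 0.21). On the low side, Gstm2 had 6.19 and 11.3 CPM in endothelial against 164 and 159 in lens cells, and Gstm6 had 1.86 and 2.05 against 136 and 127 CPM. Macrophages had 0 UMIs of Gstm2, Gstm6 and Nxn. Of 9 other transferases and peroxidases 2 were higher and 6 lower in endothelial cells, 88.9% against 62.3% of all genes. Of 10 genes of the glutathione cycle 3 were higher and 5 lower in mural cells, 80.0% against 48.9% of all genes. In macrophages 8 of 21 genes around NRF2 were higher and 2 lower, 47.6% against 37.7% of all genes. Of these lists 4 of the 9, 7 of the 10 and 3 of the 21 genes passed the filter through 1 group, Ggt5 and Anpep through mural and Gstm2 and Gstm6 through lens cells, so those genes are given as values with no test and nothing is read from the first 2 counts. Selenop and Mt1, and Blvra and Mafk of the 21, passed through vascular groups and not through lens cells. Their tests against lens are no support either.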

How the data were processed

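Single-cell RNA sequencing (10x 3′ chemistry, version 3.1) was deposited for 2 pools as UMI counts per gene and barcode, which the authors made with Cell Ranger 6.1.1 on mm10 and filtered to cells, with no further normalization. The submitters' processing notes also name GENCODE vM21. Barcodes under percentile 2 or over percentile 97 of genes (445.52 and 4261) or UMIs (948.76 and 20198.3), and those whose mitochondrial share exceeded 15%, were removed. Scrublet (scanpy 1.11.5) then ranked barcodes, and the top 8% per pool were dropped as likely doublets. Lens barcodes with a mitochondrial share under 1% and erythroid barcodes were left out. Counts were summed per pool and group and tested with edgeR 4.0.16 in R 4.3.3 (quasi-likelihood F test, TMM, filterByExpr, Benjamini-Hochberg 0.05) with the pool as a block, over 9248 genes for cell types and 12812 for lens groups. The 112 gating genes were not tested. Groups of a pool come from the same pups and library: same-pool deviations correlated at 0.000106 to 0.188 over 6 pairs of cell types and 0.435 to 0.796 over 15 pairs of lens groups. Cells were not treated as replicates, and p-values with 2 pools rest on a spread shared across groups. The scripts were tested on simulated data. The members and lists were chosen with earlier results of these data known. All 39 members were described by role; of 114 further genes in 6 lists, those named were among the up to 3 per comparison with the largest called log2 fold change, a shared sign in the pools and a level of 50 CPM or more in 1 of the groups. The alternatives were DESeq2 1.42.0, other normalizations, filters, doublet and gate limits, no replicate block, each pool alone, and, added after seeing the data, gates without markers that lens cells also express.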

Additional observations from a re-analysis of the deposited data

How the results depend on the processing

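Counts of members called moved by over 1.5 times once, for Igfbp5-rich against Igfbp5-poor cells, where DESeq2 called 13 and edgeR 20. Over all alternatives the counts ranged over 28 to 35 for late, 22 to 29 for early, 21 to 28 for G2M and 16 to 27 for S against resting cells, and over 20 to 28 for endothelial, 21 to 27 for mural and 19 to 23 for macrophage against lens cells. Signs turned under stricter gates for Gclc (-0.28) and Gclm (-0.033) in G2M, for Gsto1 (0.028) and Idh1 (0.083) in early against resting cells, and for Prdx5 in late against early cells (0.15). With library sizes counted without crystallin UMIs and no TMM factors, signs turned in late against early cells for Gpx4 (-0.11), Prdx1 (-0.11), Prdx2 (-0.084) and Txn1 (-0.10), and in late against resting cells for Prdx1 (-0.14), Txn1 (-0.10) and Txn2 (-0.13). The cause was not tested beyond the scaling itself. Without the replicate block 28 members were called in late, 22 in early, 21 in G2M and 16 in S against resting cells, 14 between the resting groups, 17 in late against early cells, and 23, 25 and 22 in endothelial, mural and macrophage cells, with 16 for mural against endothelial cells. Of the members' values under alternatives, 4256 kept direction and side of the threshold (or, with no test, moved by less than the spread), 141 lost the call, 80 gained it, 23 moved and 12 reversed. Each pool alone leaves 1 sample a group and gives values with no test. The 4256 include 363 and 366 such values. Their limit was set from the gap between the same pools, which nearly fixed the outcome, so they are no support. Macrophage values rest on 49 cells, so a low count there is not detectable as a difference below the floor of 3 counts.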
